A study of Macaca mulatta with 12 samples.

Results

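Serine/threonine protein phosphatases and their subunits were examined in the dorsal raphe of female rhesus monkeys given ovarian hormones. Members were taken by gene symbol: every probe set whose single symbol in the platform's gene table began with PPP1, PPP2, PPP3, PPP4, PPP5, PPP6 or PPM1, with PPM1K left out. This gave 94 probe sets of 56 genes, of 52766 probe sets and 14132 named genes on the array. Of these, 74 probe sets of 47 genes were bright enough to be tested. The members are named by symbol and by probe set name, and the sequences behind the probe sets were not used here.

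The 12 arrays came from 12 animals, 1 per array, with 3 animals in each of 4 groups. Capsules under the skin held estrogen plus progesterone, progesterone, estrogen or placebo for 1 month before tissue was taken. The placebo titles carry the code OVX, read here as ovariectomy, and the labels do not say whether the hormone-treated animals were ovariectomized too. The progesterone arrays are coded EP in their titles and P in their descriptions; they were taken as progesterone alone.

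Serine/threonine phosphatases remove phosphate from serine and threonine residues and so oppose the kinases that hormones and transmitters switch on. A few catalytic subunits do most of this work, and their targets are set by a large number of regulatory subunits. PP1 joins a catalytic subunit to one of many targeting or inhibitory proteins. PP2A is built from a catalytic, a scaffold and a B-type regulatory subunit. Calcineurin, the PPP3 family, is switched on by calcium and calmodulin and is abundant in neurons. The PPM1 family needs magnesium or manganese and acts without such subunits. PPM1A is a widely expressed PPM1 enzyme with targets in AMPK, stress kinase and SMAD signalling. PPP2R2C encodes a B-type PP2A subunit enriched in brain.

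The tissue block, labelled as dorsal raphe, contained serotonin neuron transcripts. TPH2, FEV, GATA2, GATA3 and SLC18A2 passed the filter on dim probe sets, LMX1B did not, and SLC6A4 and DDC had no probe set under those symbols. Array medians lay between 71.1 and 98.6 intensity units. On the first principal component the first arrays of estrogen plus progesterone, estrogen and placebo stood apart, at −44.0, −44.9 and −51.6, against −1.64 to 29.0 on the other 9 arrays. The second component set the progesterone arrays, at −54.5 to −14.1, apart from the other 9, at 0.50 to 20.4. The 3′ minus 5′ difference of the EF1A control probe sets, a sign of RNA or labelling quality, was −0.37 to −0.31 on the progesterone arrays and −0.08 to 0.74 on the others. The same difference overlapped for actin, at 0.66 to 1.23 on the progesterone arrays and 0.11 to 0.90 on the others, where it leaned the other way, and for GAPDH, at 0.11 to 0.59 and 0.34 to 1.11. The summed intensity of the serotonin neuron markers was 1986 to 2519 on the progesterone arrays. It was 2598 to 3260 with estrogen plus progesterone, 2825 to 3763 with estrogen and 2585 to 3680 with placebo. Taken singly on their brightest probe sets, all 5 tested serotonin neuron markers averaged lower with progesterone than with placebo. Each of them overlapped between these groups, and 0 of the 5 reached an unadjusted p under 0.05 (limma). Summed markers of neurons, cerebellar neurons, oligodendrocytes, astrocytes, microglia and endothelial cells overlapped between progesterone and placebo. The cerebellar neuron sum was 955 to 1574 with progesterone and 1079 to 2134 with estrogen plus progesterone. With estrogen it was 1282 to 2980 and with placebo 1058 to 1236. The second component, EF1A and the serotonin neuron sum therefore moved with the progesterone group, while actin and GAPDH did not separate it. Their part in the results below was not tested. In a tissue block, fewer cells of a type and less RNA per cell cannot be told apart.

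Progesterone against placebo asked what progesterone alone did. One probe set of PPM1A and a pair of probe sets of PPP2R2C rose with progesterone, and no other member passed the test. These 3 of 74 tested members stood against 0.133% of all tested probe sets called in this comparison (35 of 26383, limma, adjusted p under 0.05). The family was chosen with earlier results of these data known. Nothing is therefore read from its counts of calls against the share of all probe sets, here or below. All 3 called members were higher, and 31 of the 35 calls over all probe sets were higher too.

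The called PPM1A probe set, MmugDNA.12836.1.S1_at, read 8.99, 8.95 and 9.13 on the log2 intensity scale on the progesterone arrays. With estrogen plus progesterone it read 6.67, 6.89 and 7.19, with estrogen 6.38, 7.22 and 6.69, and with placebo 6.44, 7.13 and 6.96. The progesterone arrays were high and tight, and the lowest of them lay 1.73 above the highest of the other 9 arrays. The group means were 9.02 ± 0.09 with progesterone and 6.84 ± 0.36 with placebo (SD, n = 3 each). The log2 difference was 2.18 with an SE of 0.24 and a 95% confidence interval of 1.66 to 2.71, a 4.54-fold higher intensity (limma, adjusted p = 0.00735). In deposited intensity units the probe set stood at 491 to 539 with progesterone and 85.4 to 142 with placebo.

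The other PPM1A probe sets did not show this pattern. MmugDNA.23509.1.S1_at read 10.32, 10.32 and 10.18 with progesterone and 9.99, 9.88 and 10.01 with placebo, a difference of 0.31 with an SE of 0.15 (adjusted p = 0.536). Its groups did not overlap, though the difference was a small part of that of MmugDNA.12836.1.S1_at. MmugDNA.30863.1.S1_at read 10.52, 10.19 and 10.54 with progesterone and 9.67, 9.9995 and 10.40 with placebo, and the groups overlapped (difference 0.39, SE 0.20, adjusted p = 0.566). MmugDNA.39353.1.S1_at read 8.75, 8.27 and 9.47 with progesterone and 8.67, 8.89 and 8.76 with placebo, a difference of 0.06. All 4 PPM1A differences were above 0, and that of MmugDNA.39353.1.S1_at turned to −0.07 when arrays were aligned by their medians. Across the 12 arrays the 6 pairs of PPM1A probe sets correlated at r = −0.17 to 0.51.

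PPP2R2C had a probe set with a still higher fold. MmugDNA.19967.1.S1_at read 10.44, 10.48 and 10.13 with progesterone. It read 7.70, 6.89 and 7.53 with estrogen plus progesterone, 7.71, 7.72 and 7.41 with estrogen, and 5.28, 7.29 and 7.72 with placebo. The lowest progesterone array was 2.42 above every other array, and the first placebo array lay far below the rest. The difference from placebo was 3.59 with an SE of 0.49 and an interval of 2.52 to 4.65, or 12.03-fold (limma, adjusted p = 0.0180). Without the first placebo array it was 2.85 (adjusted p = 0.00492).

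The second called PPP2R2C probe set, MmugDNA.9884.1.S1_at, read 10.25, 9.75 and 9.74 with progesterone. It read 8.41, 7.55 and 7.72 with estrogen plus progesterone, 8.37, 7.37 and 7.73 with estrogen, and 6.95, 7.89 and 8.22 with placebo. The progesterone arrays again lay above the other 9, with a gap of 1.33. Its difference from placebo was 2.23 with an SE of 0.36 and an interval of 1.45 to 3.01, or 4.68-fold (limma, adjusted p = 0.0407). It passed in only 3 of the 12 fits that left out 1 array, whereas MmugDNA.19967.1.S1_at passed in 8 and the PPM1A probe set in all 12. Leaving out any progesterone array, or the second placebo array, lost the call for both PPP2R2C probe sets, with adjusted p from 0.0526 to 0.105 for MmugDNA.19967.1.S1_at and from 0.0943 to 0.154 for MmugDNA.9884.1.S1_at. With only the progesterone and placebo arrays in the fit, none of the 3 calls held, at adjusted p = 0.0852 for PPM1A and 0.175 and 0.1598 for PPP2R2C. Both PPP2R2C calls were also lost with no filter on dim probe sets (0.0554 and 0.0958) and with the replicate number as a block (0.0505 and 0.0834).

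The remaining PPP2R2C probe sets did not follow. MmugDNA.6440.1.S1_at read 9.86, 10.73 and 10.38 with progesterone, against 9.73, 9.54 and 10.24 with placebo (difference 0.49, SE 0.26, adjusted p = 0.575). MmugDNA.34808.1.S1_at read 6.79, 7.52 and 7.13 with progesterone and 6.71, 6.85 and 8.10 with placebo, a difference of −0.07. Both sets of groups overlapped. The called pair correlated at r = 0.950 over the 12 arrays, and the other 5 pairs of PPP2R2C probe sets at −0.12 to 0.63. These correlations are descriptions, since the points share arrays and groups.

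**Figure D1:**
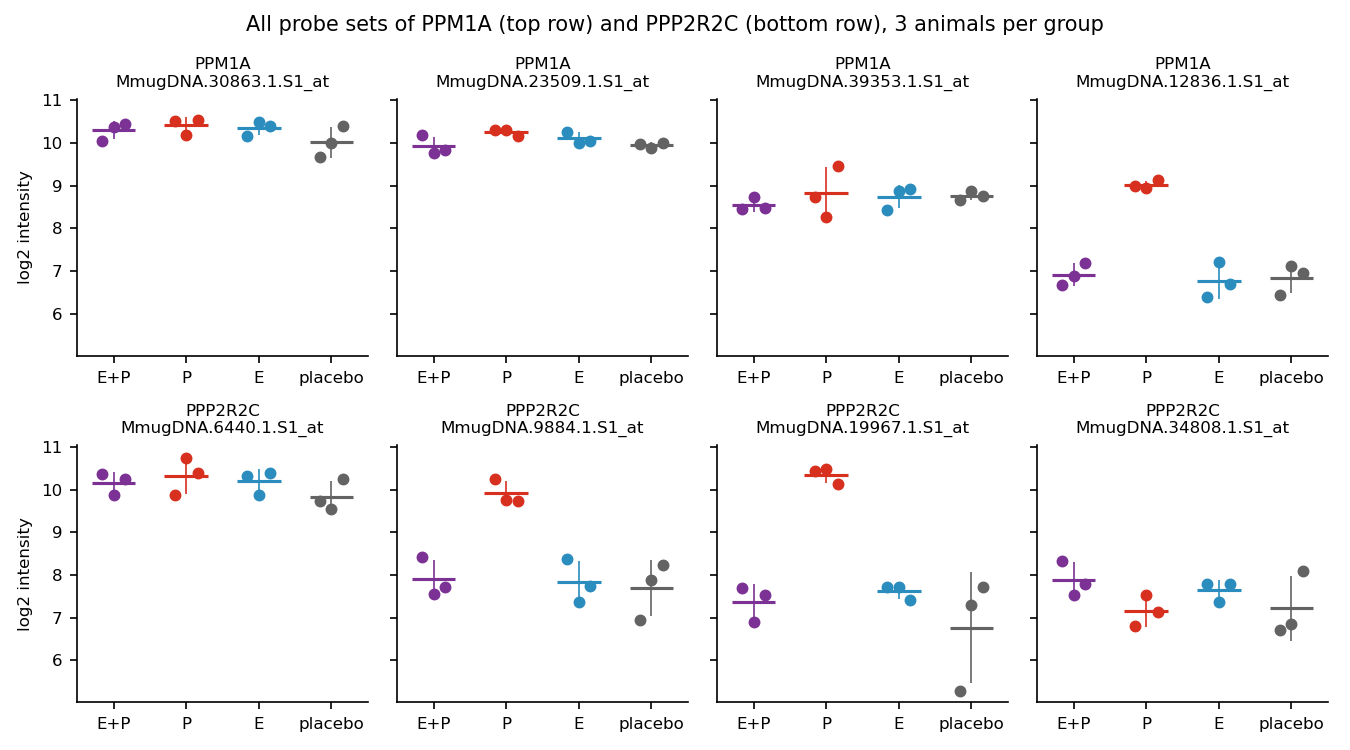
Log2 intensity of all 4 probe sets of PPM1A (top) and all 4 of PPP2R2C (bottom) in the 4 groups (E+P, estrogen plus progesterone; P, progesterone; E, estrogen). Points are animals, horizontal bars are group means and vertical bars are SD over 3 animals. The 3 progesterone points stand above all others in MmugDNA.12836.1.S1_at, MmugDNA.9884.1.S1_at and MmugDNA.19967.1.S1_at, and overlap or nearly meet the other groups in the remaining 5 panels.

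Probe sets of a gene often did not follow each other in the family. More than 1 probe set was tested for 15 genes, and their 42 pairs had a median r of 0.27, with a range of −0.52 to 0.95. In progesterone against placebo the probe sets of 6 of the 15 genes all had 1 sign, though many of these differences were small. No such values were taken for genes outside the family. The 74 tested probe sets comprised 47 whose names began with MmugDNA, 18 with MmuSTS and 9 with Mmu, and the 3 called ones were all of the first kind. That split was not set against all tested probe sets, and nothing is read from it.

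Across the family, progesterone arrays lay wholly above the other 9 arrays for 4 of 74 members and below them for 0. Over all tested probe sets these shares were 2.48% and 2.07%. The 4 were the 3 called probe sets and MmugDNA.35542.1.S1_at of PPM1E, a phosphatase of PAK and calmodulin-dependent kinases in neurons, whose gap was 0.12. That PPM1E probe set passed the filter on dim probe sets only through its progesterone arrays, so the count of 4 is a description and nothing is read from it against 2.48%. Against placebo alone, progesterone ranges did not overlap for 12 of 74 members (16.2%), near the 15.3% of all tested probe sets. An unadjusted p under 0.05 was reached by 7 of 74 (9.46%), against 9.87% of all. On 1 probe set per gene, the brightest, the median difference was 0.02 over 47 members and −0.04 over 9959 named genes, with 27 of 47 members and 43.9% of those genes above 0. Over probe sets rather than genes, the median of all tested was −0.02 and moved to −0.12 under median alignment. That of the 74 member probe sets moved from 0.01 to −0.09.

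**Figure D2:**
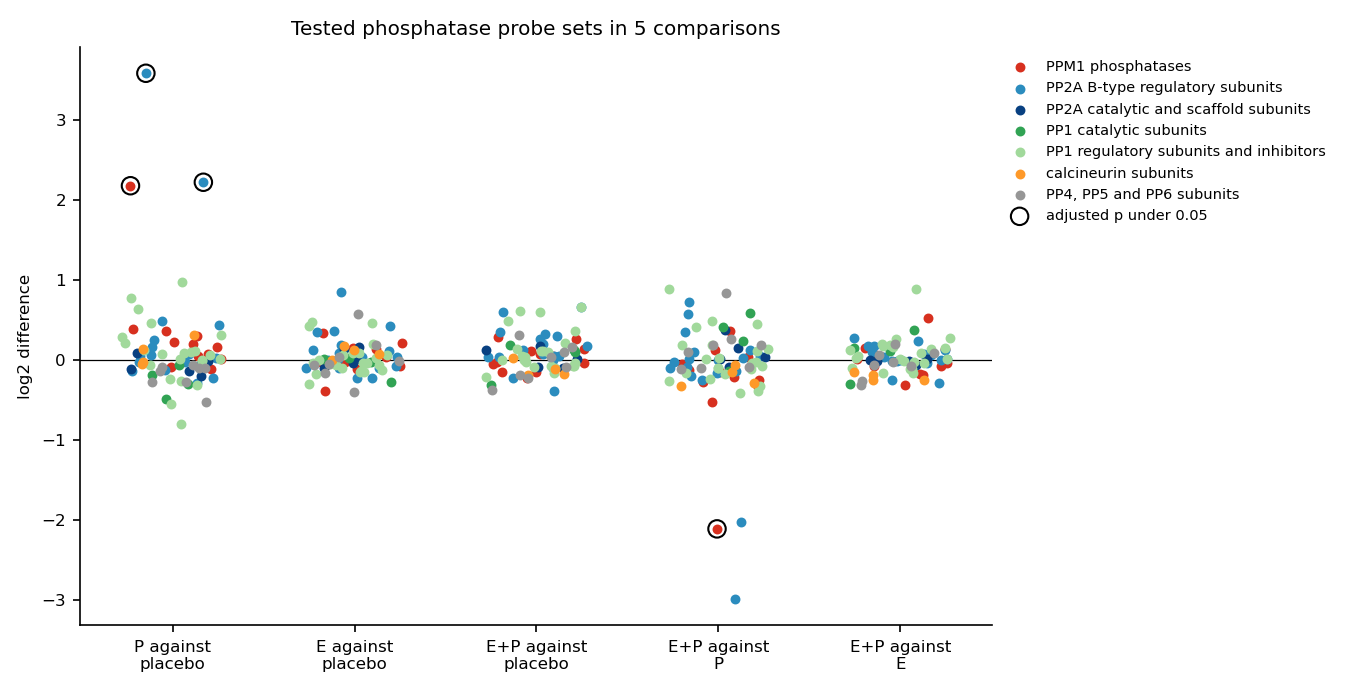
Log2 difference of each of the 74 tested phosphatase probe sets in 5 comparisons, coloured by role. Points are jittered sideways and rings mark an adjusted p under 0.05. The 3 ringed points in P against placebo are PPM1A at 2.18 and PPP2R2C at 3.59 and 2.23, and the ringed point in E+P against P is PPM1A at −2.11.

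The combination against progesterone alone asked what adding estrogen to progesterone did. PPM1A MmugDNA.12836.1.S1_at fell to 6.92 ± 0.26 with estrogen plus progesterone, against 9.02 ± 0.09 with progesterone (SD, n = 3 each). The difference was −2.11 with an SE of 0.24 and an interval of −2.63 to −1.58 (limma, adjusted p = 0.0113). This was the only one of 74 members called, against 0.0834% of all tested probe sets (22 of 26383). Ranges did not overlap for 13 of 74 (17.6%), against 17% of all, and 10 of 74 (13.5%) had an unadjusted p under 0.05, against 11.4% of all. The call was lost, at adjusted p = 0.0529 to 0.0636, without the first or second array of estrogen plus progesterone or without progesterone array 2 or 3.

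The PPP2R2C probe sets called against placebo had large differences here that missed the threshold. MmugDNA.19967.1.S1_at averaged 7.37 ± 0.42 with estrogen plus progesterone and 10.35 ± 0.19 with progesterone, a difference of −2.98 (SE 0.49, adjusted p = 0.0581). MmugDNA.9884.1.S1_at averaged 7.89 ± 0.45 and 9.92 ± 0.29 in the same groups, a difference of −2.02 (SE 0.36, adjusted p = 0.0907). Neither overlapped between groups. Over the 12 fits that left out 1 array they passed in 2 and 1, with adjusted p from 0.00161 to 0.210 for MmugDNA.19967.1.S1_at and from 0.0291 to 0.265 for MmugDNA.9884.1.S1_at. The lowest of each came without the first placebo array, which sets part of the shared estimate of spread. This comparison uses the same 3 progesterone arrays as progesterone against placebo, so the values of both are not independent.

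With estrogen plus progesterone against placebo, the same 3 probe sets differed by 0.08 for PPM1A and by 0.61 and 0.20 for PPP2R2C, with SEs of 0.24, 0.49 and 0.36. With estrogen against placebo the differences were −0.07, 0.85 and 0.13. None passed, and the groups overlapped. The interaction of the hormones, the effect of progesterone with estrogen minus its effect without, was −2.03 for PPM1A (adjusted p = 0.295) and −3.83 and −2.16 for PPP2R2C (adjusted p = 0.316 and 0.608). No probe set of any gene passed in the interaction, 0% of all tested, while 6.4% of all had an unadjusted p under 0.05. The moderated F test over the 4 groups called PPM1A MmugDNA.12836.1.S1_at (adjusted p = 0.0114), 1 of 74 members against 0.0758% of all tested. It gave adjusted p of 0.0570 and 0.0976 for the PPP2R2C probe sets.

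Genes with the most similar profiles over the 12 arrays were taken from 15016 tested probe sets of other named genes. For PPM1A MmugDNA.12836.1.S1_at they were SF3B5, TM7SF3, EXTL2, PA2G4 and WASHC4, at Pearson r of 0.961, 0.948, 0.944, 0.942 and 0.941. For PPP2R2C MmugDNA.9884.1.S1_at they were DEF6, PAGE4, SEC63, PNISR and JMJD1C, at 0.968, 0.959, 0.958, 0.949 and 0.943. In each of these genes the lowest progesterone array lay above the highest of the other 9. For TM7SF3 the values were 8.25 to 8.63 with progesterone and 6.24 to 6.79 on the others, and for PNISR 9.61 to 9.92 and 7.52 to 8.78. Each r was taken across all 4 groups and follows the step between progesterone and the rest.

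The PPM1 family outside PPM1A gave no call. PPM1E MmugDNA.22095.1.S1_at averaged 8.14 ± 0.11 with estrogen plus progesterone and 8.66 ± 0.40 with progesterone (difference −0.52, SE 0.22, adjusted p = 0.406). Against placebo, at 8.29 ± 0.14, progesterone differed by 0.37 (adjusted p = 0.629). PPM1E MmugDNA.35542.1.S1_at read 6.49, 6.51 and 6.53 with progesterone, against 6.23, 6.36 and 6.25 with placebo, so it was tight but only 0.23 higher (adjusted p = 0.602). PPM1F, another phosphatase of PAK kinases, differed by 0.20 on its brighter probe set, without overlap. PPM1M averaged 7.42 ± 0.27 with estrogen plus progesterone, 6.89 ± 0.36 with estrogen and 7.27 ± 0.31 with placebo. Its differences of 0.53 from estrogen and, for estrogen against placebo, −0.38 did not pass. PPM1N differed by 0.29 between estrogen plus progesterone and placebo. PPM1H, PPM1J and PPM1L were too dim to test.

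PP2A's catalytic subunit PPP2CA had the steadiest probe set of those tested in the family. This probe set, its brightest, read 10.72, 10.77 and 10.77 with estrogen plus progesterone, 10.73, 10.69 and 10.78 with progesterone, 10.75, 10.81 and 10.85 with estrogen, and 10.90, 10.81 and 10.80 with placebo. Its SD within groups was 0.05, the lowest of the 74 members, whose median was 0.24 against 0.28 for all tested probe sets. The difference between progesterone and placebo was −0.10 with an interval of −0.37 to 0.16. The other tested PPP2CA probe set varied more, with an SD within groups of 0.27 and a difference of 0.09, and the pair correlated at r = −0.02 over the 12 arrays. PPP2CB, the other catalytic subunit, averaged 11.66, 11.75, 11.66 and 11.76 in estrogen plus progesterone, progesterone, estrogen and placebo. PPP2R1A, the main scaffold, averaged 11.32 ± 0.14 with estrogen plus progesterone and 10.94 ± 0.28 with progesterone. That difference of 0.38 had an SE of 0.16 and did not pass (adjusted p = 0.414). PPP2R1B, the second scaffold gene, averaged between 6.22 and 6.37. In progesterone against placebo all 4 catalytic and scaffold genes had values below 0 on their brightest tested probe sets, with a median of −0.12 and none passing.

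B-type subunits, which choose PP2A's substrates and place in the cell, included 9 tested genes. In estrogen plus progesterone against placebo all 9 had differences above 0 on their brightest probe set, with a median of 0.19 and a highest value of 0.36, and none passed. Other probe sets of PPP2R2A and PPP2R3A lay below 0, down to −0.38 and −0.22. Of all named genes in that comparison 47.1% were above 0, and the median was −0.01. PPP2R2B, the brain-enriched neighbour of PPP2R2C in the same subfamily, was steady on its brightest probe set, with 10.85, 10.90 and 10.77 for progesterone and 10.63, 10.70 and 10.67 for placebo. These groups did not overlap, and the difference was 0.17 (interval −0.09 to 0.44). Its other probe set differed by −0.12. PPP2R2A MmuSTS.2108.1.S1_s_at averaged between 9.79 and 9.92, and PPP2R2D between 8.78 and 8.97. PPP2R2D was higher with estrogen plus progesterone than with estrogen or placebo, without overlap, by 0.18 and 0.19 (adjusted p = 0.9999 and 0.999). Of the tested B-type probe sets, PPP2R2C MmugDNA.19967.1.S1_at had the largest SD within groups, 0.70, and that of PPP2R5C followed at 0.56.

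**Figure D3:**
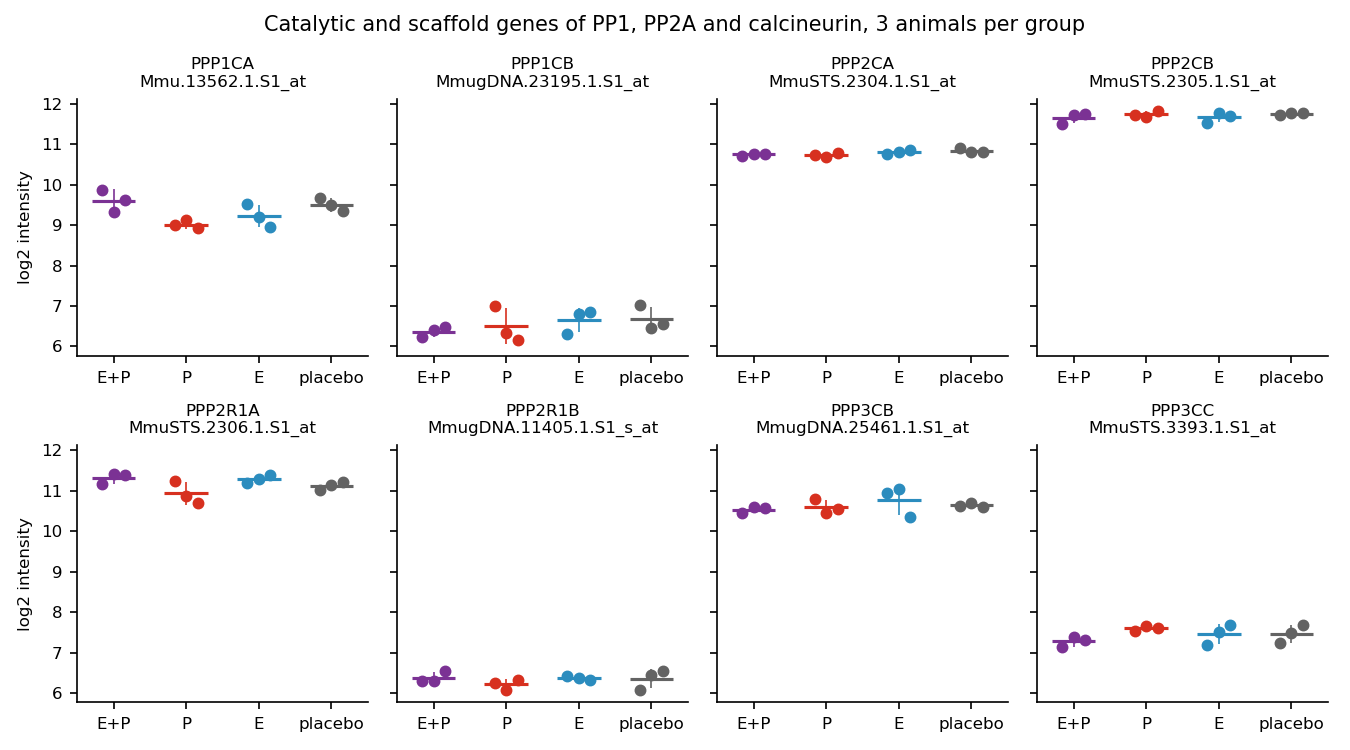
Log2 intensity of the catalytic and scaffold genes of PP1, PP2A and calcineurin on their brightest tested probe sets in the 4 groups (E+P, P, E and placebo). Points are animals, horizontal bars are group means and vertical bars are SD over 3 animals. PPP2CA and PPP2CB vary by 0.10 between group means, while PPP1CA runs from 9.02 with P to 9.61 with E+P.

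PPP1CA is a catalytic subunit of PP1. Its brightest probe set read 9.88, 9.33 and 9.62 with estrogen plus progesterone and 8.998, 9.13 and 8.92 with progesterone. With estrogen it read 9.51, 9.21 and 8.96, and with placebo 9.68, 9.49 and 9.34. The progesterone arrays lay below those of placebo and of estrogen plus progesterone. The difference of progesterone from placebo was −0.49 (SE 0.19, adjusted p = 0.432) and that of estrogen plus progesterone from progesterone 0.59 (SE 0.19, adjusted p = 0.291). Its interaction was 0.87 (adjusted p = 0.693). The x_at probe set whose name shares its stem gave −0.29 and 0.42, and MmuSTS.3392.1.S1_at −0.06 and 0.25, so all 3 had 1 sign in each comparison. None passed. PPP1CB averaged 6.37 ± 0.13 with estrogen plus progesterone, 6.50 ± 0.44 with progesterone, 6.66 ± 0.30 with estrogen and 6.68 ± 0.31 with placebo, and its groups overlapped.

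PP1's regulatory genes were the largest class, with 19 of 24 tested. PPP1R1B, the gene of DARPP-32, is a PP1 inhibitor of dopamine-receptive neurons. It read 7.25, 8.17 and 7.85 with estrogen plus progesterone, 7.01, 6.29 and 7.28 with progesterone, 7.67, 7.73 and 7.79 with estrogen, and 7.59, 7.51 and 7.87 with placebo. The progesterone arrays were the low ones, with the second array lowest. Progesterone differed from placebo by −0.79 (SE 0.27, adjusted p = 0.367) without overlap. Estrogen plus progesterone differed from progesterone by 0.90 (SE 0.27, adjusted p = 0.265), where the first array of the combination fell inside the progesterone range.

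PPP1R12A, the myosin-targeting subunit of PP1, read 9.42, 9.41 and 9.37 with progesterone and 7.86, 9.05 and 8.98 with placebo. Progesterone lay above placebo, and the first placebo array was the lowest. The difference was 0.77 (SE 0.29, adjusted p = 0.410), and without that array it was 0.39. PPP1R13B, known as a binding partner of the tumour suppressor p53, read 8.56, 7.53 and 8.19 with progesterone and 8.88, 8.50 and 8.54 with placebo (difference −0.55, adjusted p = 0.491). PPP1R3F, a glycogen-targeting subunit, averaged 8.18 ± 0.13 with estrogen plus progesterone and 7.77 ± 0.34 with progesterone on MmugDNA.8807.1.S1_at (difference 0.42, adjusted p = 0.414). Its brighter probe set, MmuSTS.2292.1.S1_at, differed by −0.11 in that comparison.

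PPP1R16A, a membrane-targeting subunit related to PPP1R12A, led the combination's comparison with placebo. It read 7.92, 8.19 and 7.95 with estrogen plus progesterone, 7.83, 7.34 and 7.42 with progesterone, 7.82, 8.08 and 7.57 with estrogen, and 7.17, 7.29 and 7.74 with placebo. The combination lay above both progesterone and placebo. The difference from placebo was 0.62 (SE 0.21, interval 0.17 to 1.07, adjusted p = 0.999) and from progesterone 0.49 (adjusted p = 0.399). Estrogen alone differed from placebo by 0.42 (SE 0.21). PPP1R7, a PP1 regulator of cell division, differed by 0.49 between estrogen plus progesterone and placebo on MmugDNA.21456.1.S1_at, against 0.05 and −0.03 on its other probe sets.

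PPP1R21 had the lowest p in estrogen plus progesterone against estrogen. It read 8.17, 8.68 and 8.95 with estrogen plus progesterone, 9.15, 8.27 and 8.49 with progesterone, 7.53, 7.91 and 7.66 with estrogen, and 8.07, 7.41 and 8.51 with placebo. Both groups that received progesterone lay above the estrogen arrays. The difference of the combination from estrogen was 0.90 (SE 0.31, interval 0.22 to 1.57), and that of progesterone from placebo 0.64 (SE 0.31). Neither passed, with adjusted p of 0.9999 and 0.535. PPP1R14A, an inhibitor of myosin phosphatase, was the brightest member and averaged between 11.778 and 11.995 in the 4 groups.

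**Figure D4:**
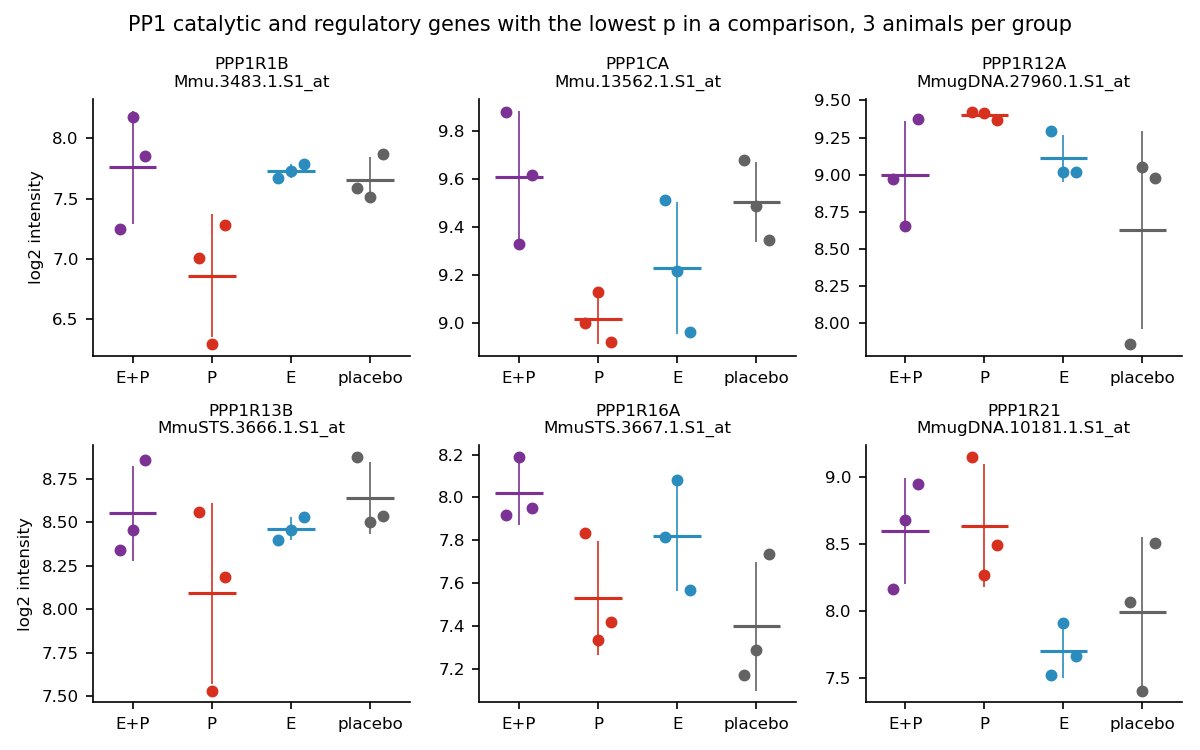
Log2 intensity of 6 PP1 genes with low p in at least 1 comparison, in the 4 groups (E+P, P, E and placebo), with a separate y axis for each gene. Points are animals, horizontal bars are group means and vertical bars are SD over 3 animals. PPP1R1B and PPP1CA have their lowest points with P, PPP1R12A has 1 low placebo array at 7.86, and none of the 6 passed the test.

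Calcineurin's catalytic genes did not pass in any comparison. PPP3CB MmugDNA.25461.1.S1_at read 10.44, 10.61 and 10.56 with estrogen plus progesterone, 10.80, 10.44 and 10.55 with progesterone, 10.94, 11.04 and 10.35 with estrogen, and 10.63, 10.70 and 10.60 with placebo. The groups overlapped, and progesterone differed from placebo by −0.05 with an interval of −0.45 to 0.36, while its other probe sets differed by −0.01 and 0.32. PPP3CC read 7.13, 7.39 and 7.32 with estrogen plus progesterone and 7.53, 7.65 and 7.61 with progesterone. Its groups did not overlap, and the difference was −0.32 (SE 0.17, adjusted p = 0.509).

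PP4, PP5 and PP6 genes, 5 of 6 tested, were all below 0 on their brightest probe sets in progesterone against placebo, with a median of −0.10. On the same probe sets they were all above 0 in estrogen plus progesterone against progesterone, with a median of 0.20, and these comparisons share the progesterone arrays. In that comparison other probe sets of PPP4R1 and PPP4R3B lay below 0, down to −0.10. None passed. PPP5C, a phosphatase that works with heat shock chaperones and steroid receptors, had the widest spread of the 74 tested probe sets, with an SD within groups of 1.20. PPP4R3B, a PP4 regulatory subunit, differed by −0.39 between estrogen and placebo on MmugDNA.8114.1.S1_at and by 0.19 on MmugDNA.4254.1.S1_at.

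Estrogen against placebo, estrogen plus progesterone against placebo, and estrogen plus progesterone against estrogen called 0 of 74 members and 0% of all tested probe sets in limma. Unadjusted p under 0.05 were reached by 0, 2 and 2 members, against 2.65%, 3.85% and 2.98% of all. Ranges did not overlap for 2, 4 and 2 members, against 7.54%, 10.5% and 8.09% of all. The median 95% interval of a difference over all tested probe sets reached 0.49 to either side, without adjustment over probe sets. Shifts smaller than this were mostly not detectable with 3 animals a group. That width does not set what the adjusted test could call, and larger shifts also missed the adjusted threshold. An example was 0.90 for PPP1R21 between estrogen plus progesterone and estrogen. Over all tested probe sets, the lowest difference for estrogen against placebo, −3.22, was not called. Nor was the highest for estrogen plus progesterone against estrogen, 3.52.

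**Figure D5:**
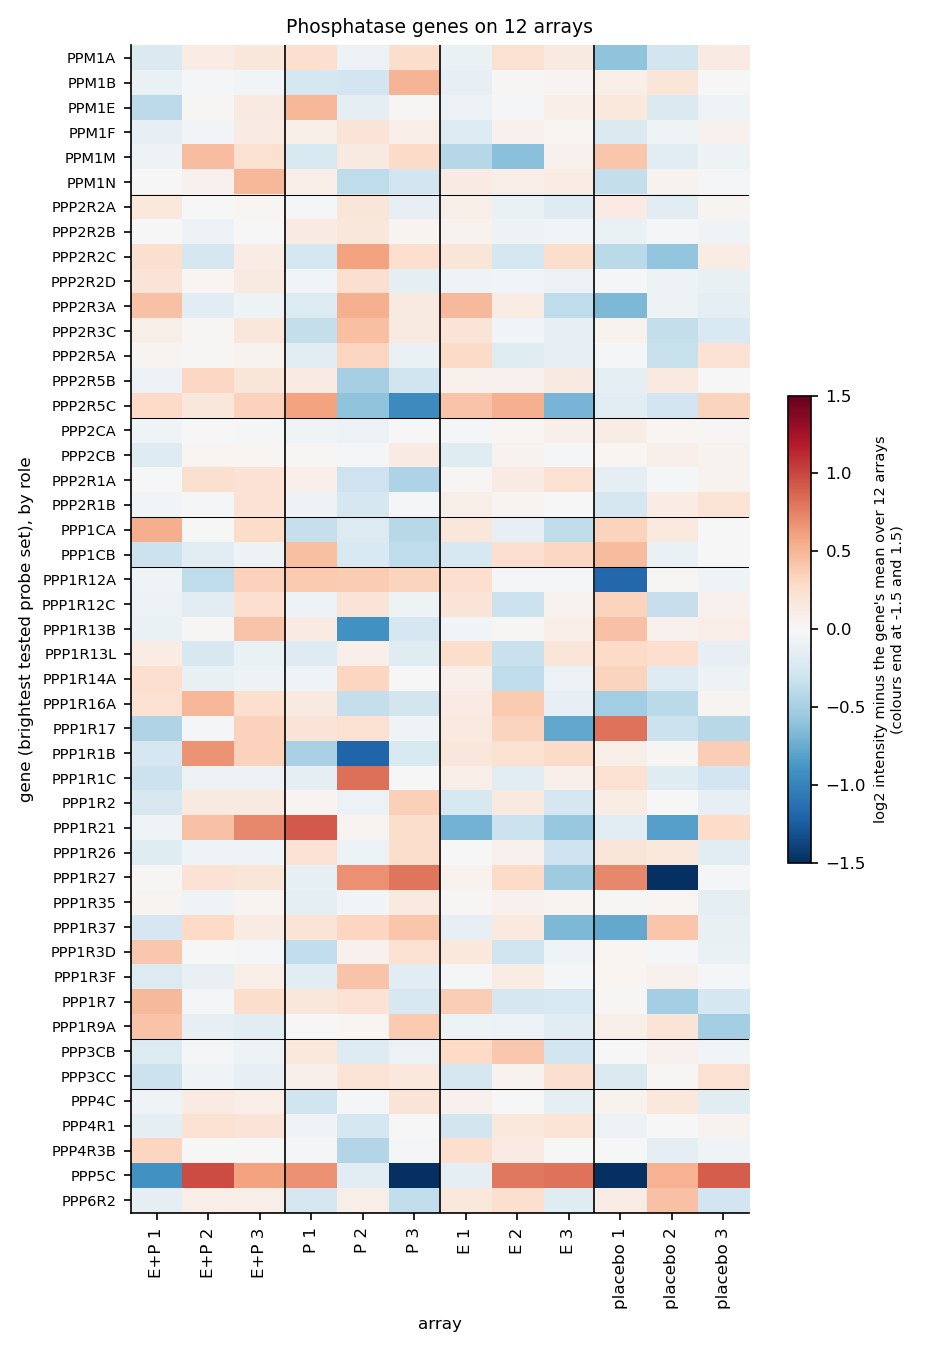
Log2 intensity of 47 phosphatase genes on their brightest tested probe set, as the difference from each gene's mean over the 12 arrays, with genes in rows by role and arrays in columns by group. Red is above and blue below the gene's mean. Few genes follow the groups, PPP5C and PPP1R27 vary widely between animals, and the called probe sets of PPM1A and PPP2R2C are not shown here because each gene has a brighter one.

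On the brightest tested probe set of each gene, partners of these enzymes gave no call, and their other probe sets were not read. On that basis the phosphatase genes gave none either. Of genes that bind or modify PP1 and PP2A, 16 were tested, of calcineurin's partners 8, and of other serine/threonine phosphatases 12. In progesterone against placebo their medians were 0.03, −0.20 and −0.11, against −0.04 for all named genes. STRN, a scaffold of PP2A complexes, differed by 0.56 and SIKE1, of the same complexes, by −0.50. NFATC2, a transcription factor that calcineurin activates, differed by 0.39 between progesterone and placebo and by −0.59 between estrogen plus progesterone and progesterone (adjusted p = 0.2998). ILKAP, a phosphatase of the PPM type, differed by −0.80 (SE 0.29, adjusted p = 0.395) and by 0.99 (SE 0.29, adjusted p = 0.249) in those comparisons. PPM1K, a mitochondrial enzyme acting on branched-chain amino acid catabolism, differed by 1.14 between estrogen plus progesterone and progesterone (SE 0.33, adjusted p = 0.251).

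The filter on dim probe sets kept members with a mean log2 intensity of at least 6.31. Just inside were PPM1E MmugDNA.35542.1.S1_at, PPP2R1B MmugDNA.11405.1.S1_s_at and the dimmer PPP4R1 probe set, at 6.32, 6.33 and 6.34. Just outside were PPP1R37 MmugDNA.8453.1.S1_at, PPM1F MmugDNA.15066.1.S1_at and PPP1R10, at 6.27, 6.09 and 5.98. These 3 inside were the only tested members that reached the filter through their highest group, and the other 71 would have passed without it. Every probe set of PPM1A and PPP2R2C was among the 71.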

How the data were processed

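Biotin-labelled RNA from 12 dorsal raphe blocks was hybridised to rhesus Affymetrix arrays, 1 monkey per array, per the labels. The deposited values are linear intensities. Per the file's own values, the authors' intensities share a trimmed mean of 200.0 on every array once the lowest and highest 2% are removed; the software that made them is not named in the labels. From 52865 probe sets, 99 controls were removed, intensities were floored at their 5th percentile (4.99), log2 transformed and quantile normalized. The 26383 probe sets with a mean of at least the median of means (log2 6.31, intensity 79.5) were tested. Symbols came from the platform's gene table, and 92 of 94 members matched RefSeq by gene identifier. A probe set with several symbols and 3 of PPM1K were left out.

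Limma 3.58.1 (lmFit, eBayes) in R 4.3.3 fitted 1 mean per group over all 12 arrays, with 8 residual and 3.54 prior degrees of freedom. P-values are two-sided and were adjusted by Benjamini-Hochberg over the 26383, with 0.05 as the threshold. The steps were tested on simulated data. Matplotlib 3.10.9 (Python 3.11.15) made the figures.

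Members and lists were chosen with earlier results of these data known. Named were every probe set of PPM1A and PPP2R2C, each member past the threshold, members among the 5 lowest p in each direction of a comparison, the catalytic and scaffold genes of PP1, PP2A and calcineurin, and list genes by lowest p. PPM1F, PPP5C, PPP2R2B, PPP2R5C and TM7SF3's and PNISR's levels were picked after their values were seen. The alternatives were median alignment, other filters and floor, the brightest probe set per gene, only the arrays compared, array weights, a replicate block and leaving out each array.

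Replicate numbers 1 to 3 recur in each group, but the labels name no shared animal, batch or day. From the data alone, deviations of same-numbered arrays correlated above 0.1 in all 3 pairs for estrogen plus progesterone with placebo (0.103 to 0.274) and with estrogen (0.142 to 0.507), and not for other groups compared. Over all groups the median was 0.027 in 18 same-numbered pairs and 0.012 in 36 others.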

Additional observations from a re-analysis of the deposited data

How the results depend on the processing

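Counts of called members moved with the processing. In progesterone against placebo the 3 calls became 1 with no filter on dim probe sets, 1 with the replicate block, 0 with the brightest probe set of each gene (which drops all 3) and 0 with only the arrays of the groups compared, and 1 to 3 when each array was left out. The block left PPM1A (adjusted p = 0.00831), while the PPP2R2C probe sets stood at 0.0505 and 0.0834. The replicate numbers were not taken to pair these groups, whose same-numbered arrays deviated with correlations of −0.24 to −0.11. Same-numbered arrays all deviated with correlations above 0.1 only for estrogen plus progesterone with placebo and with estrogen, though no label pairs them. In those comparisons the block gave 0 calls, as without it. In estrogen plus progesterone against progesterone the 1 call became 0 with a filter at the 75th percentile or the brightest probe set, 2 with only the arrays compared, 3 with array weights, 3 without the 3 arrays apart on the first principal component (an alternative chosen after seeing the data), and 0 to 3 leaving out each array. For any difference between the 4 groups, 1 became 0, 0, 3 and 3 under the same filter, brightest probe set, weights and arrays apart, and 0 to 2 leaving out each array. The other 4 comparisons had 0 called members throughout. The filter at the 75th percentile removes the PPM1A probe set, and with fewer arrays or probe sets the tests change too; other causes were not tested.

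Over all probe sets, 35 calls in progesterone against placebo ranged from 5 to 55 leaving out each array and from 0 to 45 under the other settings; for estrogen plus progesterone against progesterone, 22 calls ranged from 0 to 42 and 0 to 44; for any difference, 20 ranged from 0 to 25 and 0 to 28. The 0 calls of estrogen or estrogen plus progesterone against placebo reached 1, as did those of estrogen plus progesterone against estrogen. In the interaction the 0 calls reached 4 leaving out each array and stayed at 0 under the other settings. The PPM1A difference of 2.18 stayed between 1.98 and 2.33 leaving out each array, and missed the threshold with only the arrays compared (adjusted p = 0.0852).

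Signs turned only for differences that had not passed. PPM1A MmugDNA.39353.1.S1_at in progesterone against placebo was −0.0718 under median alignment and −0.0261 with array weights, and PPM1A MmugDNA.30863.1.S1_at in estrogen plus progesterone against progesterone was 0.00013 under median alignment. PPP2R2C MmugDNA.9884.1.S1_at was −0.24 for estrogen and −0.12 for the combination against placebo with array weights, and −0.51 and −0.42 without the 3 arrays apart, where PPP2R2C MmugDNA.19967.1.S1_at and PPM1A MmugDNA.12836.1.S1_at were −0.29 and −0.0017 for the combination. Leaving out each array in turn, the ranges that crossed 0 were, in progesterone against placebo, −0.26 to 0.34 for PPM1A MmugDNA.39353.1.S1_at and −0.33 to 0.37 for PPP2R2C MmugDNA.34808.1.S1_at. In estrogen plus progesterone against progesterone they were −0.552 to 0.0485 for PPM1A MmugDNA.39353.1.S1_at and −0.394 to 0.0407 for PPP2R2C MmugDNA.6440.1.S1_at. For PPM1A MmugDNA.12836.1.S1_at they were −0.12 to 0.22 for the combination against placebo, −0.0389 to 0.379 for the combination against estrogen and −0.30 to 0.12 for estrogen against placebo. For PPP2R2C MmugDNA.9884.1.S1_at they were −0.17 to 0.47, −0.19 to 0.34 and −0.23 to 0.40 in those comparisons, and for PPP2R2C MmugDNA.19967.1.S1_at −0.13 to 1.09 for the combination against placebo.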
